A study of Mus musculus with 16 samples.

Results

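The genotype difference that remained when both genotypes had been given the oligonucleotide against Dnm2 was measured in the tibialis anterior, which lifts the foot. The comparison set 4 treated knockout mice (KO_ASO) against 4 treated wild-type mice (WT_ASO), chosen by their labels, so it used 8 of the 16 samples of the series. The other 8 were the saline controls, 4 wild-type mice (WT_PBS) and 4 knockout mice (KO_PBS). All 16 mice were male, 7 weeks old and of strain C57BL/6N by the labels. The knockout line is written Bin1mck-/-, treatment is written PBS or ASO, and the oligonucleotide is named ASO1. The labels spell out neither the promoter behind "mck" nor the deleted part of Bin1, and neither dose nor schedule was stated in the labels. Saline and treated mice of a genotype shared the same Bin1 alleles, and both treated groups carried the Dnm2 oligonucleotide, so KO_ASO and WT_ASO differed in genotype alone as far as the labels tell.

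Bin1 encodes amphiphysin 2, a protein with a curved BAR domain that binds and bends membranes and that shapes the transverse tubules of muscle. Dnm2 encodes dynamin 2, a GTPase that cuts membrane necks, and BIN1 protein binds it. Loss of BIN1 causes a recessive centronuclear myopathy, a muscle disease in which nuclei sit in the centre of the fibres, and an antisense oligonucleotide is a synthetic nucleic acid that binds a chosen RNA and lowers its amount. The question of the comparison was which differences between the genotypes are left when Dnm2 is low in both.

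The treated libraries held 27591900 to 38455645 counts, and 14960 of 29730 genes had enough counts to be tested. Pearson correlations of log2 CPM (read counts relative to library size, with library sizes scaled by TMM) were 0.974 to 0.987 between mice of a treated group and 0.967 to 0.988 between the treated groups, so mice of different genotype were about as alike as mice of the same genotype. The first principal component of the treated samples held 29.2% of the variance and did not separate the genotypes, with WT_ASO at -27.0, -29.4, -13.3 and 21.3 and KO_ASO at -11.5, 2.01, 5.19 and 52.7. KO_ASO 4 stood farthest out on it. The second component held 21.2%, with WT_ASO at 13.8, -21.5, -31.8 and -19.0 and KO_ASO at 26.8, 31.7, 0.67 and -0.66. On that component only WT_ASO 1 reached the KO_ASO range. The tissue label was checked against fast-fibre genes: Atp2a1, the calcium pump of fast fibres, measured 34643 to 57945 CPM in the treated mice.

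The targeted genes were read first. Bin1 (ENSMUSG00000024381, chromosome 18, 32377230 to 32435737, plus strand, GRCm38) measured 479, 533, 619.8 and 524 CPM in the WT_ASO mice and 35.4, 31.9, 42.9 and 31.7 CPM in the KO_ASO mice. The groups lay far apart, and the KO_ASO mean was 6.58% of the WT_ASO mean (log2FC -3.92, SE 0.12, adjusted P value 3.65e-12, exact permutation P = 0.0286, two-sided, the smallest that 4 against 4 samples allow). Bin1 overlaps A830052D11Rik on the other strand. Dnm2 measured 24.6, 23.1, 29.4 and 25.4 CPM in WT_ASO and 24.4, 20.7, 22.8 and 31.1 CPM in KO_ASO. These ranges overlapped, the KO_ASO mean was 96.5% of the WT_ASO mean, and no genotype difference was found (log2FC -0.051, SE 0.11, adjusted P value 0.868, exact permutation P = 0.686, two-sided), and the log2FC was 0.056 with library totals alone. For reference, Dnm2 lay at 50.2 to 62.8 CPM in WT_PBS and 59.1 to 67.7 CPM in KO_PBS, above all 8 treated mice. Both treated groups therefore had low Dnm2 and only the knockout had low Bin1.

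With these levels, 11 of 14960 genes (0.0735%) were differentially expressed genes (DEGs, adjusted P value under 0.05) between KO_ASO and WT_ASO. Of these 6 were up-regulated (0.0401%) and 5 were down-regulated (0.0334%) in the knockout, and 4 differed at least 2-fold. The treated groups did not overlap for any of the 11, and of all genes tested 2.96% were higher and 4.00% lower without overlap. In the saline mice the same genotype comparison gave 1878 DEGs (12.6%), 1112 up-regulated (7.43%) and 766 down-regulated (5.12%), with 10.5% of genes higher and 9.85% lower without overlap. At an unadjusted P value under 0.05 there were 2262 genes in the treated mice, 1060 higher (7.09%) and 1202 lower (8.03%). The number of DEGs was unstable: leaving out any 1 of the 16 samples gave 2 to 19, DESeq2 gave 402 (2.84%) and the likelihood ratio test of edgeR 164 (1.10%). Bin1 and Gm44577 were called in every alternative, and each of the other 9 lost its call in at least 9 of the 16 leave-outs.

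The down-regulated genes other than Bin1 were small differences in enzymes and signalling proteins. Aldh7a1, an aldehyde dehydrogenase of lysine breakdown, measured 33.02, 32.5, 33.9 and 29.1 CPM in WT_ASO and 24.2, 23.1, 25.3 and 23.7 CPM in KO_ASO (log2FC -0.42, SE 0.064, adjusted P value 0.0277). The lowest WT_ASO mouse was above the highest KO_ASO mouse, and saline mice of both genotypes lay at 23.2 to 26.4 CPM, near KO_ASO. It overlaps Phax on the other strand. Aldh4a1, an aldehyde dehydrogenase of proline breakdown, measured 72.9, 89.2, 89.1 and 87.8 CPM in WT_ASO and 61.7, 57.5, 62.02 and 58.5 CPM in KO_ASO (log2FC -0.50, SE 0.078, adjusted P value 0.0277). WT_ASO 1 was the low one of its group, and the gene was also down-regulated in saline knockout mice (log2FC -0.25, SE 0.077, adjusted P value 0.0405). Ubb, a gene for polyubiquitin, measured 84.6, 107, 90.4 and 88.3 CPM in WT_ASO and 73.3, 67.7, 64.2 and 66.7 CPM in KO_ASO (log2FC -0.45, SE 0.080, adjusted P value 0.0499). All 4 WT_ASO mice lay above the 12 others, whose range was 57.1 to 73.3 CPM. Ubb shares near-identical coding repeats with other ubiquitin genes, so its counts depend on how such reads were assigned. Pnck, a calcium/calmodulin-dependent protein kinase on the X chromosome, measured 8.02, 8.01, 10.5 and 9.76 CPM in WT_ASO and 4.83, 6.74, 4.67 and 5.16 CPM in KO_ASO (log2FC -0.76, SE 0.14, adjusted P value 0.0499). In saline mice its difference had the same sign and was not called (log2FC -0.37, SE 0.13, adjusted P value 0.0786).

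The up-regulated genes were led by an RNA from the neighbourhood of Bin1. Gm44577 (ENSMUSG00000109232, chromosome 18, 32462579 to 32509064, plus strand, GRCm38), a long noncoding RNA annotated at a bidirectional promoter 26.8 kb beyond the end of Bin1, measured 0.425, 0.260, 0.334 and 0.361 CPM in WT_ASO and 7.87, 7.80, 9.17 and 6.72 CPM in KO_ASO (log2FC 4.51, SE 0.19, adjusted P value 3.70e-10). It was as high in saline knockout mice, at 6.95 to 8.71 CPM. Tubb6, a beta-tubulin isotype, measured 10.1, 7.41, 14.2 and 11.2 CPM in WT_ASO and 19.3, 34.1, 18.3 and 40.2 CPM in KO_ASO (log2FC 1.38, SE 0.23, adjusted P value 0.0499). KO_ASO 2 and 4 were the highest of their group and no KO_ASO mouse fell within the wild-type range, while all KO_PBS mice lay at 67.2 to 82.9 CPM. Tnfrsf23, a decoy receptor for TRAIL, measured 3.73, 3.44, 4.49 and 3.36 CPM in WT_ASO and 5.46, 7.64, 6.09 and 6.03 CPM in KO_ASO (log2FC 0.75, SE 0.13, adjusted P value 0.0499), against 14.9 to 17.3 CPM in KO_PBS. It was the only one of the 11 whose genotype difference itself differed between treated and saline mice (difference of log2FC -1.26, SE 0.18, adjusted P value 0.00535), in a test that called 86 genes (0.575%), 9 with a larger (0.0602%) and 77 with a smaller (0.515%) signed difference in treated mice. Wwtr1, which encodes the Hippo pathway coactivator TAZ, measured 29.9, 26.9, 28.6 and 30.3 CPM in WT_ASO and 38.3, 48.8, 39.8 and 41.01 CPM in KO_ASO (log2FC 0.54, SE 0.094, adjusted P value 0.0499), and was also up-regulated in saline knockout mice (log2FC 0.33, SE 0.093, adjusted P value 0.0280).

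Nedd9, a scaffold of focal adhesions, and Gm20721 were called in the treated mice and not in the saline mice, and for neither was the difference between treatments called. Nedd9 measured 5.96, 4.89, 5.10 and 7.004 CPM in WT_ASO and 9.21, 12.7, 8.89 and 12.6 CPM in KO_ASO (log2FC 0.92, SE 0.15, adjusted P value 0.0354). The groups did not overlap, and the saline mice of both genotypes lay at 6.93 to 9.40 CPM, within reach of both. The saline difference was 0.044 (SE 0.15, adjusted P value 0.884). The difference between its treated and saline log2FC, 0.87, missed the threshold (SE 0.21, adjusted P value 0.0710). For Gm20721 that difference was 2.16 (SE 0.48, adjusted P value 0.0570). Gm20721, a predicted protein-coding gene on the strand opposite Gnas, had only 2, 3, 5 and 6 counts in WT_ASO and 16, 25, 14 and 12 counts in KO_ASO (log2FC 2.13, SE 0.35, adjusted P value 0.0354). Without a stated strand setting of the counting, its reads cannot be told apart from those of Gnas.

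**Figure D1:**
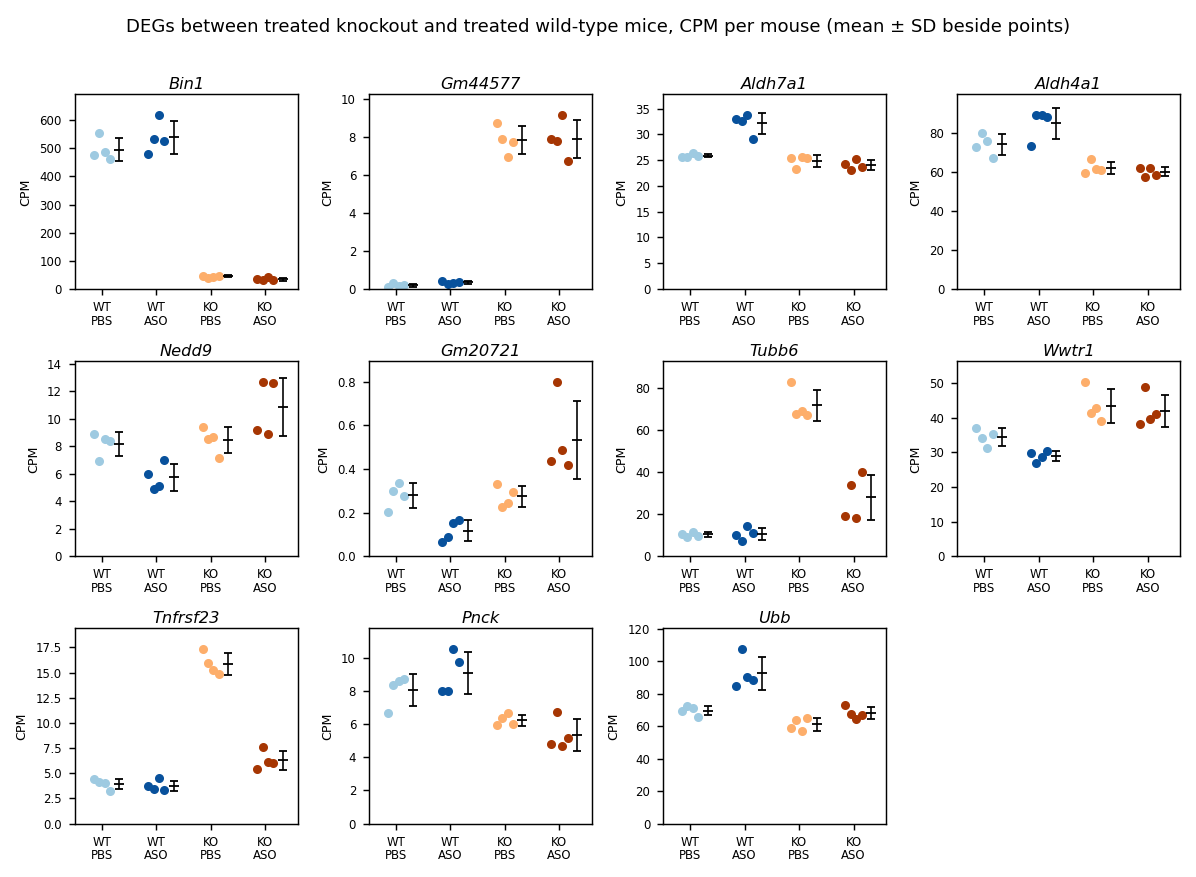
CPM of each of the 11 DEGs between KO_ASO and WT_ASO in every mouse of the 4 groups (points), with the group mean and SD (black, n = 4), each panel on its own linear axis from 0. Bin1 and Gm44577 separate the genotypes under both treatments, Tubb6 and Tnfrsf23 are highest in KO_PBS, and WT_ASO stands apart from the other groups for Aldh7a1 and Ubb.

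Of the 11 DEGs, 6 were also DEGs with the same direction in the saline mice, beside 12.6% of all genes called there, and 10 are protein coding. Those 6 were Bin1, Gm44577, Aldh4a1, Tubb6, Wwtr1 and Tnfrsf23. Bin1, Gm44577, Aldh7a1 and Tubb6 lie on chromosome 18. Apart from Bin1, 13.0% of the 416 genes tested on that chromosome had an unadjusted P value under 0.05, against 15.2% of the 14543 genes elsewhere. Within 2 Mb of Bin1, 24 other genes were tested, of which Gm44577 was called and 4 had an unadjusted P value under 0.05.

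The genes ranked next by P value fell just short of the threshold in the quasi-likelihood test, and the 8 named here were called by DESeq2 and by the likelihood ratio test. Among those higher in the knockout, Ahnak2, a giant scaffold protein of the cell membrane, measured 6.28, 3.59, 6.25 and 4.31 CPM in WT_ASO and 10.3, 14.5, 8.51 and 11.5 CPM in KO_ASO (log2FC 1.14, SE 0.20, adjusted P value 0.0535). The groups did not overlap. Sox11, a transcription factor of development, measured 0.131, 0.231, 0.243 and 0.278 CPM and 0.489, 0.799, 0.692 and 0.662 CPM (log2FC 1.55, SE 0.30, adjusted P value 0.0745). These groups did not overlap either. Mpc1, a subunit of the mitochondrial pyruvate carrier, had a log2FC of 0.53 (SE 0.10, adjusted P value 0.0745), with WT_ASO at 5.98 to 6.80 CPM and KO_ASO at 8.79 to 9.72 CPM. Among those lower in the knockout, Rpl14, a protein of the large ribosomal subunit, lay at 33.2 to 34.1 CPM in WT_ASO and 24.95 to 27.4 CPM in KO_ASO (log2FC -0.36, SE 0.067, adjusted P value 0.0550). Rbx1, the RING subunit of cullin ubiquitin ligases, lay at 59.7 to 67.3 and 46.5 to 52.3 CPM (log2FC -0.36, SE 0.071, adjusted P value 0.0745). Rdm1, Aamp and Rpp25l completed this group with log2FC values of -0.44, -0.34 and -0.43 and adjusted P values of 0.0535, 0.0550 and 0.0745. None of the genes named here overlapped between the treated groups.

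Promoter sequences are printed for 2 of the DEGs and for Ahnak2 and Chrng, the fetal acetylcholine receptor gene read with the denervation genes below, because they hold motifs of factors with a known place in muscle. RefSeq promoters (GRCm38.p6) were used for 5 of the 11 DEGs, and the 250 bases before the start were searched for CAGCTG, an E-box bound by myogenic factors such as myogenin, and for CATTCC on either strand, the MCAT motif of the TEAD factors that TAZ binds. The motifs do not overlap each other. Among 32851 promoters of the RefSeq set, 13.0% held CAGCTG and 12.6% held CATTCC. Capitals mark the motifs, and GGAATG is CATTCC on the other strand.
Wwtr1 (chr3:57575911-57576160, minus strand): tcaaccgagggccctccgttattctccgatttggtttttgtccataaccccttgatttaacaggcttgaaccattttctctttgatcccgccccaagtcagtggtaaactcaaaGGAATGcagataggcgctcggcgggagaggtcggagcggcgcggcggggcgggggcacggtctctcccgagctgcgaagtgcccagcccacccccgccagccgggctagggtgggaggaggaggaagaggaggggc
Tnfrsf23 (chr7:143685876-143686125, minus strand): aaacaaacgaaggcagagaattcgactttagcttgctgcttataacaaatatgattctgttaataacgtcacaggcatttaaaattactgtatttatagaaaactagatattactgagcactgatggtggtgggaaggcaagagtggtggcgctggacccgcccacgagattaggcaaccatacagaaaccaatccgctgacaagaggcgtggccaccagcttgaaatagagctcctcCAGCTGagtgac
Ahnak2 (chr12:112795743-112795992, minus strand): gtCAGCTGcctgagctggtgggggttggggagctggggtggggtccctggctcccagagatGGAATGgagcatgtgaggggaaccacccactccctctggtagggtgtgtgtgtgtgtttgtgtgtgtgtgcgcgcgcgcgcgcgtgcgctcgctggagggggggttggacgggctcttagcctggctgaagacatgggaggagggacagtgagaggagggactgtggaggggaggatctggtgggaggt
Chrng (chr1:87205561-87205810, plus strand): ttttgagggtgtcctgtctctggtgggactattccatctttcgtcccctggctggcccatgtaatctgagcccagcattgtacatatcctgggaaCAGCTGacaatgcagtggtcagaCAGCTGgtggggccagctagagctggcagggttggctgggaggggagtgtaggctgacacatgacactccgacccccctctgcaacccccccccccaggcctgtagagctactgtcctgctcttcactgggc
The MCAT motif of Wwtr1 began 136 bases before the start and the E-box of Tnfrsf23 12 bases before it. Ahnak2 held an E-box at 248 and an MCAT motif at 189 bases before its start, and Chrng held E-boxes at 155 and 132 bases. Aldh4a1, Nedd9 and Ubb held neither motif in this window. Of the other promoters searched, Myog held neither motif, and Sox11, Chrna1 and Tnni1 each held CAGCTG. No binding was measured here.

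The genes that distinguished the genotypes in saline mice were then read in the treated mice, which share no library with the saline comparison. Of the 1878 saline DEGs, 1528 (81.4%) had the same sign in KO_ASO vs WT_ASO. An unadjusted P value under 0.05 was reached with the same sign by 563 and with the opposite sign by 18. The saline set of higher genes had a median log2FC of 0.22 in treated mice against 0.98 in saline mice, and the set of lower genes had -0.19 against -0.45. The saline values chose the genes and are given as a description. The treated difference, signed by the saline direction, was smaller than the saline difference for 1836 genes (97.8%), and a difference of opposite sign counts as smaller. Genes chosen for a called saline difference tend to read smaller in other mice, so this share does not by itself measure an effect of treatment. The interaction, the change of the genotype difference with treatment, was called for 81, beside 86 of all genes tested. Across all 14960 genes, the log2FC values of the comparisons had a Pearson r of 0.40 and a Spearman rho of 0.36, given as a description since genes are not replicates and both comparisons share the filter, scaling and spread.

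**Figure D2:**
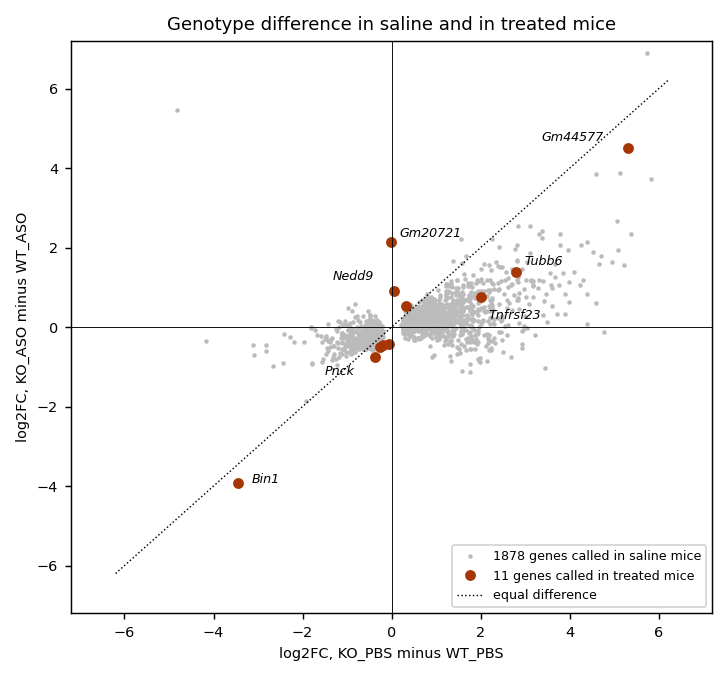
Genotype log2FC in treated mice (vertical axis) against that in saline mice (horizontal axis) for the 1878 saline DEGs (grey) and the 11 treated DEGs (brown), with a dotted line of equal difference. Most grey points lie nearer to 0 on the vertical axis than on the horizontal axis, while Bin1 and Gm44577 lie near the dotted line and Gm20721 and Nedd9 lie at 0 on the horizontal axis. The saline values are those that chose the grey genes.

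A per-mouse score made the same reading visible by sample. It is the mean log2 CPM of the 1878 genes, each signed by its saline direction, minus the mean of WT_ASO. The WT_ASO mice scored -0.003, -0.14, 0.026 and 0.11 and the KO_ASO mice 0.17, 0.29, 0.19 and 0.38. All KO_ASO mice were above all WT_ASO mice, with KO_ASO 4 highest, and the KO_PBS mice scored 0.72 to 1.055. The difference of 0.26 stayed between 0.21 and 0.30 when any 1 of the 8 treated mice was left out. Genes at least 2-fold different in saline gave 0.44.

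**Figure D3:**
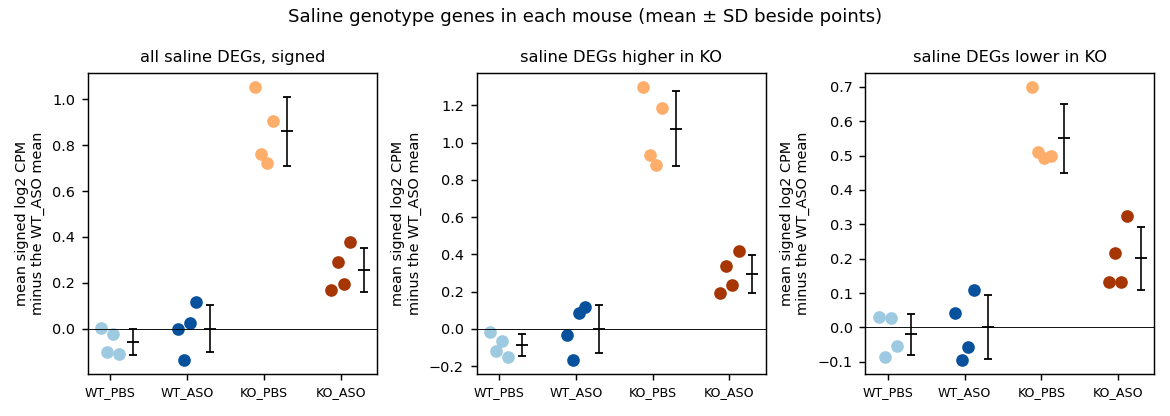
Score of the saline DEGs in each mouse (points) with group mean and SD (n = 4), as mean signed log2 CPM minus the WT_ASO mean, for all 1878 genes, the 1112 higher ones and the 766 lower ones. KO_ASO mice lie above WT_ASO mice and below KO_PBS mice in every panel, and KO_PBS values are those that chose the genes.

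The saline genes with the smallest P values showed what such a reading holds. Among the higher ones, Ncam1, the neural cell adhesion molecule that muscle fibres re-express without innervation, measured 7.72, 7.18, 9.26 and 7.45 CPM in WT_ASO and 13.7, 11.5, 11.1 and 16.3 CPM in KO_ASO (log2FC 0.73, SE 0.15, adjusted P value 0.0745). The KO_PBS mice had 32.2 to 46.04 CPM. Anxa4, an annexin that binds membranes in the presence of calcium, lay at 12.04 to 14.4 CPM in WT_ASO and 16.3 to 21.01 CPM in KO_ASO (log2FC 0.50, SE 0.10, adjusted P value 0.0745), against 33.2 to 45.8 CPM in KO_PBS. Tmbim1, a membrane protein of the BAX inhibitor motif family, overlapped between treated groups at 51.8 to 55.1 and 49.1 to 65.8 CPM (log2FC 0.11, SE 0.093, adjusted P value 0.585), against 102 to 128 CPM in KO_PBS. The genotype difference of Ahnak2, Sox11, Ncam1, Anxa4, Tnfrsf23 and Tmbim1 differed between treated and saline mice, by -2.85, -3.66, -1.52, -1.08, -1.26 and -1.13 on the log2 scale (adjusted P values 4.94e-04, 0.00344, 0.00348, 0.00344, 0.00535 and 0.00138). The value of Sox11 rests on few counts, 2, 1, 2 and 3 in WT_PBS and 4, 8, 8 and 10 in WT_ASO. Its log2FC of treated against saline mice was 1.90 in wild type and -1.76 in knockout.

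Among the lower saline genes other than Bin1, 1700001O22Rik measured 5.27, 4.60, 5.86 and 2.03 CPM in WT_ASO and 5.46, 3.61, 3.91 and 0.766 CPM in KO_ASO, where KO_ASO 4 alone was low, against 0.165 to 0.317 CPM in KO_PBS (log2FC -0.36, SE 0.41, adjusted P value 0.708). Pdzd2, a protein with PDZ domains, overlapped at 28.9 to 39.3 and 26.4 to 36.4 CPM (log2FC -0.086, SE 0.12, adjusted P value 0.781), against 18.8 to 24.8 CPM in KO_PBS, and its log2FC was 0.0084 with library totals alone. The genotype difference of these genes differed between treatments by 3.82 and 0.89 (adjusted P values 0.0176 and 0.0327). Sgf29, a subunit of the SAGA chromatin complex, did not overlap at 16.01 to 18.3 CPM in WT_ASO and 12.3 to 14.96 CPM in KO_ASO (log2FC -0.31, SE 0.079, adjusted P value 0.108). Smco1 and Dcun1d2 had log2FC values of -0.32 and -0.15 (adjusted P values 0.142 and 0.284) against -0.74 and -0.49 in saline mice.

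Gene lists for muscle are given next by the direction of their members, beside a median log2FC of 0.0033 over all 14960 genes. The lists were chosen with earlier results of these data known, so their counts and directions are a description and no independent support. Over all genes tested, 50.5% were positive, and 7.09% were higher and 8.03% lower at an unadjusted P value under 0.05. Without overlap, 2.96% were higher and 4.00% lower. DESeq2 called 2.84% and the likelihood ratio test 1.10%, and in saline mice 7.43% were up-regulated and 5.12% down-regulated. Called means an adjusted P value under 0.05 in the quasi-likelihood test of edgeR, unless another test is named. Genes of denervated and fetal muscle lay mostly above the wild type: 16 of 18 had a positive log2FC, the median was 0.70, and 8 had an unadjusted P value under 0.05, all higher. None was called in treated mice by the quasi-likelihood test, while DESeq2 and the likelihood ratio test called 5 each, and 14 of the 18 were up-regulated in saline mice, where the median was 1.69. Myog, a myogenic transcription factor, measured 4.06, 5.32, 3.01 and 5.75 CPM in WT_ASO and 8.58, 17.2, 7.23 and 17.4 CPM in KO_ASO (log2FC 1.47, SE 0.31, adjusted P value 0.0796). KO_ASO 2 and 4 were high, and the groups did not overlap. Chrng, the fetal gamma subunit of the acetylcholine receptor, measured 0.131, 0.347, 0.304 and 0.389 CPM and 1.49, 1.41, 0.658 and 0.557 CPM (log2FC 1.80, SE 0.48, adjusted P value 0.125), where KO_ASO 1 and 2 were the high ones. Runx1, a transcription factor raised by denervation, also did not overlap (log2FC 0.96, adjusted P value 0.121) and was picked after its values were seen. Of 15 genes of the neuromuscular junction, 11 were positive with a median of 0.15 (0.24 without KO_ASO 3), DESeq2 called 1, and 7 had been up-regulated in saline mice. The adult acetylcholine receptor subunit gene Chrne, picked after its values were seen, had a log2FC of -0.13 and Rapsn, which clusters the receptors, had -0.32 (adjusted P value 0.150).

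Genes listed as sarcomere stress proteins lay mostly above the wild type as well, and this list also holds the tubulin gene Tubb6. Of 15 tested, 14 were positive with a median of 0.50, and Tubb6 was called. An unadjusted P value under 0.05 was reached by 9, all higher, beside 7.09% of all genes. Leaving out 1 sample gave 4 to 10. In saline mice 12 were up-regulated with a median of 1.23. Hspb7, a small heat shock protein of muscle, measured 891, 416, 368 and 571 CPM in WT_ASO and 1848, 1100.4, 928 and 1317 CPM in KO_ASO (log2FC 1.21, SE 0.33, adjusted P value 0.133), with no overlap. Cryab, another small heat shock protein (log2FC 0.80, adjusted P value 0.139), Ankrd2 (1.47, adjusted P value 0.251) and Csrp3 (1.95, adjusted P value 0.255), both proteins of the Z-disc and I-band that respond to stretch, did not overlap either. Des, which encodes desmin, had a log2FC of 0.0052 in treated mice and 0.75 in saline mice, a difference that was called (-0.74, adjusted P value 0.0234). These 4 genes were picked after their values were seen. Annexins and membrane repair genes were positive in 11 of 14, with a median of 0.21 that was 0.090 without KO_ASO 4, and 10 of them had been up-regulated in saline mice. DESeq2 called 2 of the membrane list and 3 of the sarcomere list.

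Slow-fibre genes were positive in all 11 tested, with a median of 1.046. That median was 0.30 without KO_ASO 1, the mouse with the highest Tnni1 and Atp2a2. Myh7, the slow myosin, reached 109 CPM in KO_ASO 1 and 2.18 to 4.99 CPM in the other KO_ASO mice, and was picked after its values were seen. Tnni1, the slow troponin I, measured 3.89, 1.74, 2.52 and 6.003 CPM in WT_ASO and 22.8, 5.11, 5.05 and 18.5 CPM in KO_ASO (log2FC 1.86, SE 0.57, adjusted P value 0.174). Atp2a2, the slow calcium pump, measured 39.8, 38.1, 33.5 and 43.02 CPM and 94.6, 46.3, 46.1 and 64.1 CPM and did not overlap (log2FC 0.70, SE 0.17, adjusted P value 0.107). Fast-fibre genes lay mostly below the wild type: 10 of 12 were negative, the median was -0.34, and 6 had an unadjusted P value under 0.05. DESeq2 called 2 slow-fibre genes and 4 fast-fibre genes, and the quasi-likelihood test none. Atp2a1 lay at 45067 to 57945 CPM in WT_ASO and 34643 to 37617 CPM in KO_ASO (log2FC -0.50, SE 0.13, adjusted P value 0.109), and Tnnt3, the fast troponin T, at 21082 to 25799.9 and 16536 to 19558 CPM (log2FC -0.32, SE 0.10, adjusted P value 0.165). The fast-fibre median was close to that of the saline mice, -0.40, where 5 genes were down-regulated. Whether more slow fibres or more slow-fibre RNA per fibre lay behind such values cannot be told apart in bulk muscle, and the same holds for all lists here.

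Genes of glycolysis and glycogen use were negative in 14 of 15, with a median of -0.33. An unadjusted P value under 0.05 was reached by 10, all lower, beside 8.03% of all genes. In saline mice 8 were down-regulated and the median was -0.49. Pfkm, the muscle phosphofructokinase, measured 7358, 8547, 8569 and 6431 CPM in WT_ASO and 6117, 5624, 6142 and 4849 CPM in KO_ASO (log2FC -0.44, SE 0.11, adjusted P value 0.0945). Every KO_ASO mouse was below every WT_ASO mouse. Gpi1, glucose-6-phosphate isomerase, lay at 872 to 1096 and 680.3 to 827 CPM (log2FC -0.33, SE 0.089, adjusted P value 0.124). Pygm, muscle glycogen phosphorylase (log2FC -0.52, adjusted P value 0.137), Aldoa (-0.44, adjusted P value 0.142), Eno3 (-0.39, adjusted P value 0.136) and Ldha (-0.37, adjusted P value 0.135), the enzymes aldolase, enolase and lactate dehydrogenase of muscle, picked after their values were seen, also did not overlap. The median stayed between -0.41 and -0.28 when any sample was left out. None of these genes was called by the quasi-likelihood test of edgeR, and DESeq2 called 6 of the list, beside 2.84% of all genes.

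Triad and calcium handling genes, which sit where BIN1 protein acts, were negative in 16 of 21, with a median of -0.12 that was -0.012 with library totals alone and -0.073 without WT_ASO 3. Ryr1, the calcium release channel, lay at 3519 to 5356 CPM in WT_ASO and 3257 to 3914 CPM in KO_ASO (log2FC -0.36, SE 0.12, adjusted P value 0.195), and Cacna1s, the voltage sensor, at 1175 to 1486 and 1012 to 1228 CPM (log2FC -0.25, SE 0.093, adjusted P value 0.226). Among proteins with BAR domains Bin1 was the only call of 14, with Trip10 next (log2FC -0.22, adjusted P value 0.264). Among 11 dynamin-related genes none was called. Dnm1l, the mitochondrial fission dynamin, had 0.24 (adjusted P value 0.273), while Dnm1 and Dnm3, the neuronal dynamins, picked after their values were seen, had 0.26 and -0.39 (adjusted P values 0.507 and 0.321). Of 16 myotubularin and phosphoinositide genes 8 were positive, and DESeq2 called 2 lower. Mtmr14, a phosphoinositide phosphatase, measured 31.5, 26.5, 25.9 and 22.1 CPM in WT_ASO and 20.6, 20.7, 17.7 and 17.7 CPM in KO_ASO without overlap (log2FC -0.47, SE 0.10, adjusted P value 0.0809).

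**Figure D4:**
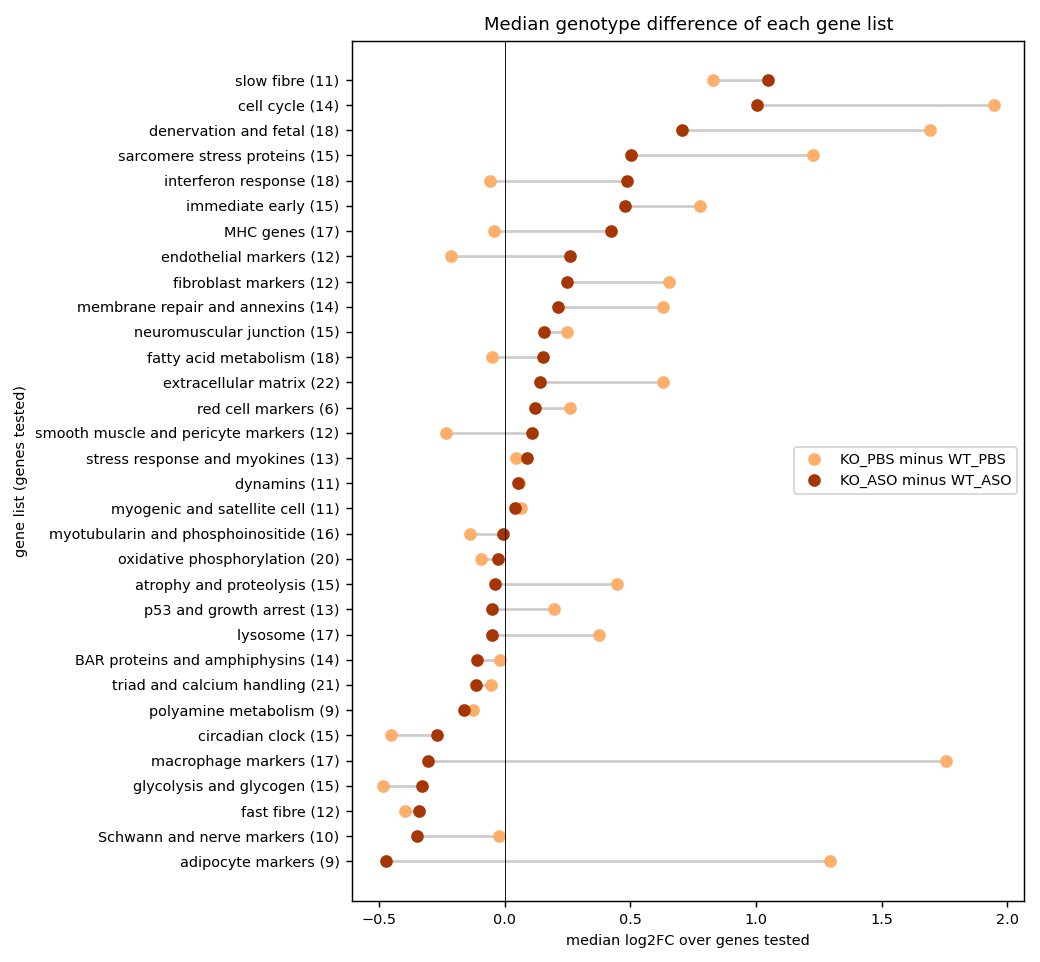
Median log2FC of the tested genes of each list with at least 5 of them, for KO_PBS vs WT_PBS (orange) and KO_ASO vs WT_ASO (brown). The slow-fibre, denervation, sarcomere stress, fast-fibre and glycolysis medians have the same sign in both, while macrophage markers go from 1.76 in saline to -0.31 in treated mice and interferon genes from -0.06 to 0.49.

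Proteolysis, lysosome and macrophage genes were up-regulated in saline knockout mice in the numbers given below, and their medians in treated mice were below 0. Of 15 atrophy and proteolysis genes 8 had been up-regulated in saline mice, and 6 were positive in treated mice with a median of -0.040. Map1lc3a, which encodes the autophagosome protein LC3A, measured 144, 173, 192 and 158 CPM in WT_ASO and 144, 128, 145 and 131 CPM in KO_ASO (log2FC -0.28, SE 0.10, adjusted P value 0.217), against a log2FC of 0.59 in saline mice, a difference that was called (-0.88, adjusted P value 0.0117). The cathepsin gene Ctsl behaved alike (-0.20 treated, 0.40 saline, difference -0.60, adjusted P value 0.0405). Of 17 lysosome genes 7 were up-regulated in saline mice and 7 were positive in treated mice, with a median of -0.051. The signs of the atrophy and lysosome medians turned with library totals alone, to 0.073 and 0.054, and also without KO_ASO 3 (0.0030) and without KO_ASO 1 (0.036), respectively. Of 17 macrophage markers 16 were up-regulated in saline mice with a median of 1.76, and in treated mice 2 were positive with a median of -0.31, which was 0.0026 without WT_ASO 3. Cd163, a scavenger receptor of resident macrophages, measured 4.75, 4.51, 7.83 and 5.23 CPM in WT_ASO and 3.37, 2.81, 3.36 and 5.82 CPM in KO_ASO (log2FC -0.54, SE 0.30, adjusted P value 0.402). The summed macrophage level was 59.2 to 129 CPM in WT_ASO and 62.1 to 93.1 CPM in KO_ASO, so the groups overlapped.

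Interferon and MHC genes lay mostly above the wild type in treated mice. None was called by the quasi-likelihood test, while DESeq2 and the likelihood ratio test called 2 interferon genes each and no MHC gene. Of 18 interferon genes 16 were positive in treated mice with a median of 0.49, and 10 had an unadjusted P value under 0.05. In saline mice the median was -0.060 and 2 were up-regulated by the adjusted P value, by which none was in treated mice. Cxcl9, a chemokine induced by interferon gamma, measured 1.21, 0.608, 0.880 and 1.86 CPM in WT_ASO and 3.69, 2.21, 2.80 and 4.91 CPM in KO_ASO (log2FC 1.57, SE 0.31, adjusted P value 0.0745), with KO_PBS at 1.01 to 1.88 CPM and WT_PBS at 2.12 to 2.95 CPM, above all WT_ASO mice. Its genotype difference differed between treatments (2.26, adjusted P value 0.0314). Gbp3 and Bst2, picked after their values were seen, overlapped between the groups with log2FC values of 0.92 and 0.69 (adjusted P values 0.205 and 0.217). Of 17 MHC and antigen presentation genes 16 were positive with a median of 0.42, and B2m had the smallest P value (log2FC 0.59, adjusted P value 0.181). These counts rested in large part on KO_ASO 4: without it 3 interferon genes and 1 MHC gene had an unadjusted P value under 0.05, and the medians were 0.39 and 0.16. KO_ASO 4 had 29.4 CPM of H2-Q4, against 12.9 to 13.7 in the other KO_ASO mice.

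Cell cycle genes, of which DESeq2 called 1, were positive in 12 of 14 with a median of 1.004, which was 0.16 without KO_ASO 4 and 1.70 without WT_ASO 4. Mki67, a marker of dividing cells, measured 0.164, 0.405, 0.668 and 1.70 CPM in WT_ASO and 1.005, 1.02, 1.56 and 8.50 CPM in KO_ASO (log2FC 2.01, SE 0.75, adjusted P value 0.238), with KO_ASO 4 and WT_ASO 4 the highest of their groups. Other lists had few or no genes with a small P value. Oxidative phosphorylation had 9 of 20 positive and a median of -0.026 (0.029 without WT_ASO 4), and none of its genes had an unadjusted P value under 0.05. Extracellular matrix genes had a median of 0.14, fatty acid genes 0.15, the circadian clock -0.27 and immediate early genes 0.48, with 1 gene at an unadjusted P value under 0.05 each for matrix, fatty acid and immediate early genes and 0 for the clock. Leaving out 1 treated mouse took the matrix median from -0.042 (without WT_ASO 1) to 0.38 (without WT_ASO 4), the fatty acid median from 0.063 (without WT_ASO 2) to 0.30 (without WT_ASO 1), the clock median from -0.44 (without KO_ASO 1) to -0.16 (without WT_ASO 2) and the immediate early median to 0.31 (without KO_ASO 4). Medians were 0.042 for myogenic, -0.050 for p53, 0.089 for stress response, -0.16 for polyamine and 0.11 for smooth muscle genes. The first 3 changed sign without KO_ASO 4 (-0.11), WT_ASO 3 (0.026) and KO_ASO 4 (-0.0063), and the last 2 were -0.038 without WT_ASO 2 and between 0.051 (without WT_ASO 3) and 0.21 (without WT_ASO 1). The quasi-likelihood test called none of these genes, and DESeq2 and the likelihood ratio test called 1 myogenic and 1 p53 gene each, Myog and Bbc3. Lum, a small proteoglycan of the matrix, measured 9.62, 14.7, 12.5 and 15.2 CPM in WT_ASO and 12.6, 20.8, 18.3 and 39.8 CPM in KO_ASO (log2FC 0.81, SE 0.30, adjusted P value 0.234). The log2FC of Lum was 0.40 to 1.01 over the alternatives run, and KO_ASO 4 was the highest mouse. Bbc3, the p53 target PUMA, measured 0.164, 0.318, 0.425 and 0.472 CPM and 0.597, 0.959, 0.761 and 0.941 CPM without overlap (log2FC 1.22, SE 0.30, adjusted P value 0.108). WT_PBS lay at 0.527 to 0.960 CPM, above all WT_ASO mice, and KO_ASO lay within that WT_PBS range. Smox, spermine oxidase, measured 354, 764, 745 and 314 CPM and 344, 205, 432 and 119 CPM (log2FC -0.99, SE 0.42, adjusted P value 0.288), against 41.02 to 118 CPM in KO_PBS.

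Markers of other cell types were read in the same way, and none was called by the quasi-likelihood test, the likelihood ratio test or DESeq2. Endothelial markers were positive in 11 of 12 with a median of 0.26 (0.15 without WT_ASO 2), and summed to 516.9 to 750.0 CPM in WT_ASO and 708.9 to 804.1 CPM in KO_ASO. Fibroblast markers were positive in 8 of 12 with a median of 0.25, which was 0.025 without KO_ASO 4, and summed to 509.7 to 801.6 and 551.0 to 732.5 CPM. Schwann cell and nerve markers were negative in 9 of 10, with a median of -0.35 that was 0.043 without WT_ASO 4, the mouse with 26.2 CPM of Mbp. Adipocyte markers had a median of -0.47, which was 0.36 without WT_ASO 1 and -0.91 without KO_ASO 1, and red cell markers 0.12, which was -1.70 without KO_ASO 4. Of 10 lymphocyte and 10 neutrophil markers only 2 each passed the count filter. The part of these cell types in the differences above was not tested.

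**Figure D5:**
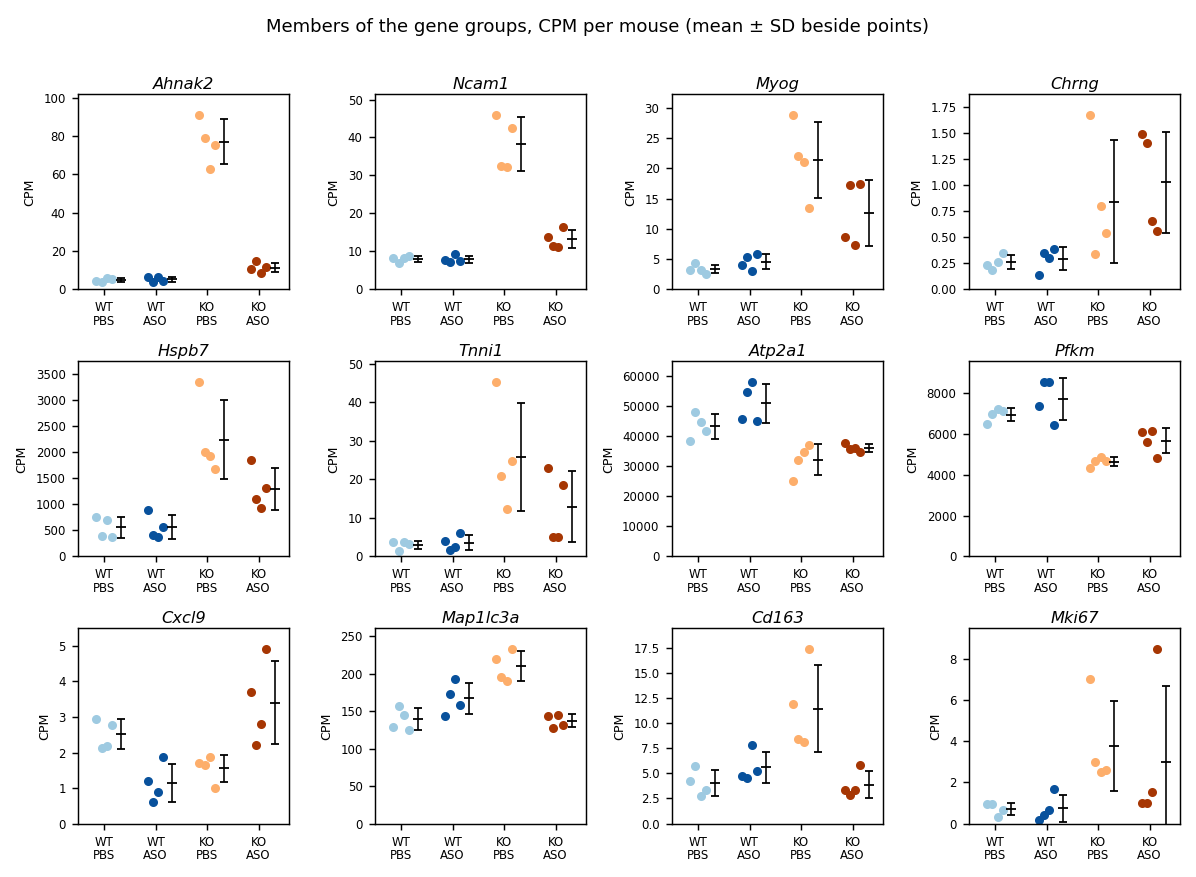
CPM in every mouse (points) with group mean and SD (black, n = 4) for 12 members of the gene groups, each panel on its own linear axis from 0. Chrng, Hspb7, Atp2a1 and Pfkm separate the treated genotypes, Map1lc3a and Cd163 are raised in KO_PBS and not in KO_ASO, and the high Mki67 mean of KO_ASO comes from 1 mouse.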

How the data were processed

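RNA was sequenced from the tibialis anterior of 16 mice, with TRI Reagent extraction and the TruSeq Stranded mRNA kit by the labels. The values deposited by the authors were whole-number read counts for each Ensembl gene, without normalization. HTSeq 0.6.1p1, STAR 2.5.3a, Bowtie2 2.2.8 and cutadapt 1.10 are named in the processing notes of the submitters, with mm10 and GRCm38 as builds. Neither what each tool did, nor whether counting used strand, nor the Ensembl release was stated, and library totals were 27591900 to 40862854 counts. All 29730 gene IDs matched GENCODE M21, which gave symbols and positions.

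The 14960 genes that passed the filterByExpr rule of edgeR were fitted with the quasi-likelihood model of edgeR 4.0.16 (R 4.3.3), TMM scaling and robust dispersion, on all 16 samples with 1 mean per group. The contrasts were KO_ASO against WT_ASO, KO_PBS against WT_PBS and their difference (the interaction), with Benjamini-Hochberg adjustment and a threshold of 0.05. The common biological coefficient of variation was 18.7%. The fit of all groups shares 1 spread estimate, and the treated and saline contrasts share no library. The SE was taken as the absolute log2FC over the square root of F. CPM used TMM library sizes, and log2 CPM a prior count of 2. Alternatives were other scaling, no filter, the compared groups alone, the replicate number as a block, the edgeR likelihood ratio test, limma 3.58.1, DESeq2 1.42.0 and leaving out each sample. The procedure was tested on simulated data.

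The genes named were Bin1 and Dnm2, the DEGs, the next 5 genes in each direction, 6 saline DEGs in each direction and the 2 members of each gene list with the smallest P value, and a few of these are not reported here. The members and gene lists were chosen with earlier results of these data known. Nothing in the labels says that mice of a group came from separate litters or batches, so P values measure only the spread between these mice. Reads of genes that overlap on opposite strands (Bin1, Dnm2, Aldh7a1, Gm20721, Rpp25l, Tmbim1, Sgf29, Rapsn, Atp2a1, Tnnt3, H2-Q4, Pfkm and Alas2 among those named) and of near-identical copies (Ubb, Tubb6, Rpl14) may have been split by the counting.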

Additional observations from a re-analysis of the deposited data

Results flagged for a closer look

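In 172 treated groups of 4 mice, 2 for each of 86 genes, 9 held a mouse far from the other 3, and chance alone gives about 1 in 20. KO_ASO 4 was such a mouse for H2-Q4 (29.4 CPM), Mki67 (8.50 CPM), Alas2 (21.2 CPM) and Hbb-bt (53.8 CPM), where the other KO_ASO mice had at most 13.7, 1.56, 2.49 and 5.34 CPM. WT_ASO 3 was high for the neutrophil markers Csf3r (0.789 CPM) and S100a9 (1.24 CPM), and WT_ASO 4 for the myelin gene Mbp (26.2 CPM). WT_ASO 1 was low for Aldh4a1 (72.9 CPM), and KO_ASO 3 was high for Rdm1 (16.5 CPM).

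The genotype difference differed between treated and saline mice for 12 of the named genes by the interaction test of edgeR, on the log2 scale. It was smaller in treated mice for Tnfrsf23 (-1.26), Ahnak2 (-2.85), Sox11 (-3.66), Ncam1 (-1.52), Anxa4 (-1.08), Tmbim1 (-1.13), 1700001O22Rik (3.82) and Pdzd2 (0.89). For Map1lc3a (-0.88), Ctsl (-0.60), Cd163 (-2.05) and Cxcl9 (2.26) the treated value had the opposite sign to the saline one, and none of these 4 treated values was called by the quasi-likelihood test. DESeq2 (adjusted P value 0.000399), the likelihood ratio test (0.00128) and the quasi-likelihood test without WT_ASO 4 (0.0353) called Cxcl9 higher.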

How the results depend on the processing

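Bin1 and Gm44577 were called under every alternative run. The number of DEGs between KO_ASO and WT_ASO, 11 as reported, was 6 with RLE size factors, 402 with DESeq2, 164 with the likelihood ratio test, and 2 with limma-voom or the compared groups alone. Library totals gave 16, 14 higher and 2 lower against 6 and 5 as reported, and moved the median of all genes from 0.0033 to 0.107. Leaving out 1 sample gave 2 to 19 DEGs, with 2 without WT_PBS 1, WT_ASO 2, WT_ASO 3, KO_PBS 3, KO_PBS 4 or KO_ASO 4, and 19 without KO_PBS 1 or KO_ASO 3. With the replicate block there were 44 (29 higher, 15 lower), 10 of them among the 11. Tubb6 lost its call with the block (adjusted P value 0.0585), and Hspb7, Ncam1 (0.0380 each), Cxcl9 (0.0397) and Anxa4 (0.0487) were the members of the lists that gained one, as did Mpc1, Rdm1, Rpl14, Aamp and Rbx1 (0.0380 to 0.0465) and App, Nes, Rtn2 and Dhrs7c (0.0397 to 0.0487) outside them. Deviations of same-numbered mice correlated at 0.408, 0.0128, 0.190 and 0.435, so 3 of the 4 pairs exceeded 0.1, each the best match of both its mice, while WT_ASO 2 correlated best with KO_ASO 1. The labels do not say that a number marks a shared litter or batch, and since not every pair exceeded 0.1 the numbers were not taken to pair the mice. The saline comparison gave 997 to 2137 DEGs when 1 sample was left out (997 without KO_PBS 1, 1080.0 without WT_PBS 4), and the interaction 23 to 102, 371 with DESeq2 and 273 with the likelihood ratio test. The saline-gene score was 0.443 for genes chosen at 2-fold or more.

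The sign of Dnm2 turned with library totals (0.056), and its leave-out range was -0.179 to 0.028. Pdzd2 turned with library totals (0.0084). Alas2 was -0.787 with limma-voom, -0.257 with the replicate block and -1.63 to 0.866 in leave-outs, and Hbb-bt -1.04, -0.376 and -1.80 to 0.695. Leave-outs also spanned 0 for Csf3r (-0.982 to 0.153), S100a9 (-1.58 to 1.03) and Mbp (-0.595 to 0.023). Over the 86 named genes other than Bin1 and Dnm2 and all alternatives, 1823 values kept direction and side of the threshold, 146 lost a call, 74 gained one and 12 changed sign. Medians of the myotubularin, atrophy, p53, lysosome and oxidative phosphorylation lists changed sign with library totals, in a comparison of lists added after seeing the data. The cause of these changes was not tested. At these depths genes under a few CPM, such as Gm20721, rest on few counts.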

Other observations

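Genes in this section were picked after their values were seen. The keratins Krt8 and Krt18, intermediate filament proteins of simple epithelia, were low in wild-type muscle and higher in the knockout. Krt18 measured 17.1, 9.52, 9.58 and 9.59 CPM in KO_PBS and 1.19, 9.94, 2.01 and 0.697 CPM in KO_ASO, while no wild-type mouse exceeded 0.395 CPM (log2FC 3.71, SE 0.75, adjusted P value 0.0796 in treated mice). Krt8 had a log2FC of 3.87 (SE 0.79, adjusted P value 0.0765). Neither was called in treated mice, and KO_ASO 2 had the highest Krt18 of its group. Sprr1a, a small proline-rich protein, was at 0 counts in all 4 WT_ASO mice and at 0.109, 0.831, 0.658 and 0.139 CPM in KO_ASO (adjusted P value 0.0822).

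The following 4 genes were called by DESeq2 (which called 2.84% of genes) and by the likelihood ratio test (1.10%), and were over the threshold in the quasi-likelihood test of edgeR as reported, whose adjusted P values are given. App, the amyloid precursor protein, had a log2FC of 0.41 (adjusted P value 0.0796), and Nes, the intermediate filament nestin, 0.75 (adjusted P value 0.0805). Among the lower genes, Rtn2, a reticulon of the endoplasmic reticulum, had -0.49 (adjusted P value 0.0796) and Dhrs7c, a dehydrogenase of the sarcoplasmic reticulum, -0.64 (adjusted P value 0.0796).

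Gm13394, a processed pseudogene, was at 339 and 540.4 CPM in KO_ASO 1 and 2 and 287 CPM in KO_PBS 4, and at no more than 2.004 CPM in the other 13 mice. It was not called in treated mice (adjusted P value 0.213).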
